A study of Mus musculus with 24 samples.

Results

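The probes described here are those whose share of a region's counts was raised in the renal microvascular endothelium of diabetic mice. They were followed into the retina, the heart and the retinal neurons. Transcripts were counted with the GeoMx digital spatial profiler, in which barcoded probes hybridised to a tissue section are cleaved by light from regions marked by an antibody and sequenced. A probe was a member if it had at least 10 counts in all 3 diabetic renal regions and if its lowest diabetic level there was over 1.3 times its highest non-diabetic level, with levels scaled to a total of 1000000 counts per region (CPM). Of the 20186 probes counted in at least 1 region, 4465 had the counts to be eligible and 173 (0.857%) met the rule. The 150 with the highest ratio of lowest diabetic to highest non-diabetic CPM, called the renal ratio below, were kept. The members were chosen by these renal values, which are given only as a description, while the retinal, cardiac and neuronal regions took no part in the choice.

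All groups came from male C57BL/6J mice, 3 per condition. Diabetic mice had received intraperitoneal streptozotocin, which destroys insulin-producing beta cells, at 50 mg/kg over 5 days at 8 weeks of age, and non-diabetic littermates citrate buffer alone. Tissue was taken 2 months later, fixed in formalin and embedded in paraffin. CD31 staining, which marks endothelium, defined the microvascular endothelial cells (MECs) of the kidney (renMECs), heart (carMECs) and retina (retMECs), and NeuN, a nuclear protein of neurons, defined the neuronal cells of the retina. Each of the 4 cell types had 3 non-diabetic and 3 diabetic regions, 24 in all. Since no label links a region to its mouse, no fit could hold the mouse as a block, and p-values measure the spread among regions only. Diabetic carMEC regions 2 and 3 are labelled as heart without naming MECs. They were placed with the carMECs since CD31 was the marker used in the heart.

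Microvascular endothelium takes a different form in each organ. In the kidney it includes the fenestrated capillaries of the glomerulus, which filter plasma. In the retina it is joined by tight junctions into the inner blood-retinal barrier, and in the heart it forms continuous capillaries that pass fuel to the cardiomyocytes. All 3 beds are sites of diabetic complications. The deposited lists name probes by ID alone and the reference tables used here paired 0 of these IDs with a gene, so roles, pathways, cell type markers, background probes and sequences of the members were not analysed here, and the labelled cell types were not checked against markers. Whether the members lie above the assay's background was therefore not tested. Single probes are named by ID for 4 members, and other members by their rank in the renal ratio, these having been singled out after their values were seen.

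Depth differed between groups and limited what could be seen of single members. Total counts ran from 28722 to 342522 in retMECs, 78053 to 788146 in neuronal cells, 115269 to 521366 in carMECs and 217736 to 1451915 in renMECs, and the median total was lower in the diabetic regions of every cell type. One count was worth 34.8 CPM in diabetic retMEC region 2, where 41 members had no count, and 0.689 CPM in the deepest renMEC region. The retMEC regions lay on plate 1, with 39.9% to 61.0% of reads aligned, and the other 18 regions on plate 2, so cell type and plate cannot be told apart where retMECs are set against other cells. Aligned reads in plate 2 regions were 79.4% in diabetic carMEC region 2, 90.2% in diabetic neuronal region 1 and at least 95.3% in the rest.

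In renMECs, where they were chosen, the members stood above the middle of all probes in diabetes and rested on few counts. Their mean diabetic level had a median of 51.5 CPM, with a range of 34.6 to 697 CPM, and their mean non-diabetic level a median of 25.6 CPM, beside 29.1 and 22.2 CPM over all probes and 66.7 and 62.2 CPM over eligible probes. The ratio of these means had a median of 2.13 and ran from 1.47 to 4.63. The renal ratio was 3.25 for the first member, 2.52 for the second and 2.299 for the member after it, and had a median of 1.48. At the limit of 150 members the last probe kept and the first left out both stood at 1.33, and at the threshold the probes on either side stood at 1.302 and 1.299. The diabetic region of lowest count gave 10 to 12 counts for 87 members, under 20 for 129 and 50 or more for only 6. With the regions scaled by their 75th percentile in place of the total, 63 probes met the rule, all of them members.

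The first question was whether the members took a larger share of counts in diabetes outside the kidney as well. In renMECs they held 1.112%, 1.28% and 1.059% of counts in the diabetic regions and 0.525%, 0.502% and 0.521% in the non-diabetic regions, values fixed by the choice. In carMECs the share was 0.961%, 0.890% and 1.076% in diabetic regions and 0.854%, 0.837% and 0.771% in non-diabetic regions. All 3 diabetic carMEC regions thus lay above all 3 non-diabetic ones, at 0.976% ± 0.0936 against 0.821% ± 0.0442 (SD, n = 3 each), a ratio of 1.189. Neuronal cells gave 0.826%, 0.883% and 0.838% in diabetic regions against 0.734%, 0.833% and 0.770% in non-diabetic regions, a ratio of 1.09 with groups that overlapped. In retMECs the shares were 0.978%, 0.919% and 0.921% against 0.803%, 0.900% and 1.002%, a ratio of 1.042, and the groups overlapped.

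The separation of the carMEC groups in this share rested on 1 probe. Without RTS0066298, the member with the smallest p in carMECs, the carMEC shares were 0.815%, 0.729% and 0.888% in diabetic and 0.783%, 0.756% and 0.717% in non-diabetic regions, a ratio of 1.078 with overlapping groups. On the 75th percentile scale the carMEC ratio was 1.077 with this probe and 0.976 without it. The neuronal ratio without it was 1.089 and the retMEC ratio 1.04. This probe was at 30.7 CPM in non-diabetic and 34.9 CPM in diabetic neuronal regions, so leaving it out could hardly change the neuronal ratio. Other members weighed more there. Mean neuronal levels went from 825 to 1130 CPM for rank 116, from 412 to 761 CPM for RTS0077009 and from 315 to 122 CPM for rank 57. Neuronal sums without these members were not computed. No test was made of these sums.

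**Figure D1:**
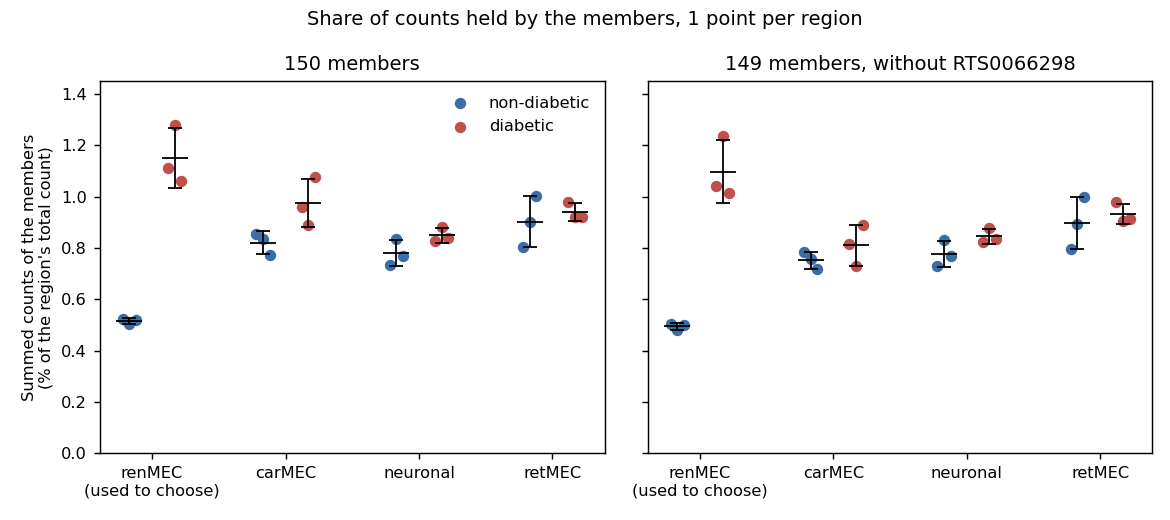
Summed counts of the members as a percentage of the region's total count (vertical axis) by cell type (horizontal axis), with 1 point per region, the mean and SD as black bars, all members on the left and RTS0066298 left out on the right. The renal groups are separated by the choice of members; the carMEC groups, at 0.976% and 0.821%, are apart on the left and overlap on the right.

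Over all members the change in the other cells had a median close to 0. The change of each of the 150 members was computed as the log2 ratio of the mean diabetic to the mean non-diabetic CPM, each raised by 10 CPM so that low values do not dominate. The median change was 0.02 in carMECs, where 80 members were higher and 70 lower, −0.01 in neuronal cells, with 74 higher and 76 lower, and −0.05 in retMECs, with 70 higher and 80 lower. The same median over all 20186 probes was −0.04, −0.11 and −0.18, and over the 4465 eligible probes, which share the members' count minimum, 0.01, −0.08 and 0.09. In renMECs it was 0.87 for the members by choice, 0.09 for eligible probes and 0.21 for all probes. The members were therefore above all probes in each of the 3 cell types but below the eligible probes in retMECs. The middle 50% of members lay between −0.21 and 0.27 in carMECs, between −0.36 and 0.30 in neuronal cells and between −0.45 and 0.33 in retMECs. On this scale 3 members were over 2-fold higher and 1 over 2-fold lower in carMECs, 0 higher and 5 lower in neuronal cells, and 5 higher and 9 lower in retMECs, the shallowest regions. The members' shares were 2% higher and 0.667% lower in carMECs (all probes 0.268% and 0.882%), 0% and 3.33% in neuronal cells (0.173% and 2.49%), and 3.33% and 6% in retMECs (3.24% and 13.6%). Among eligible probes the shares were 0.403% and 0.56% in carMECs, 0.202% and 1.9% in neuronal cells, and 4.84% and 5.51% in retMECs.

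**Figure D2:**
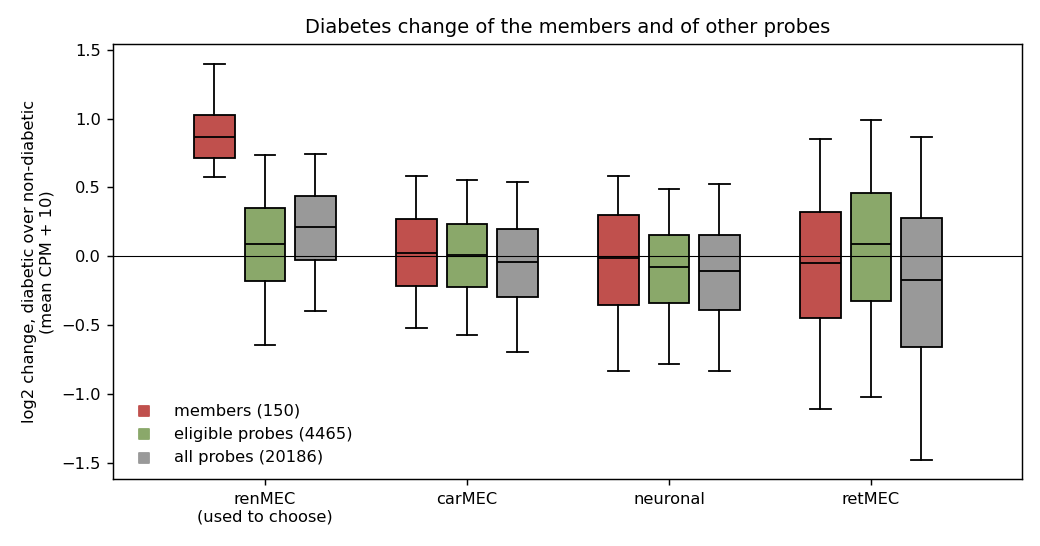
Log2 change, mean diabetic over mean non-diabetic CPM with 10 CPM added to each (vertical axis), by cell type (horizontal axis), for the members, the eligible probes and all probes; boxes span the quartiles with a line at the median, and whiskers the 5th to 95th percentile. The renal boxes of the members stand at a median of 0.87 because renal values chose them, and the medians of the members lie at 0.02, −0.01 and −0.05 in the other 3 cell types.

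Separation of the regions gave a similar picture. All 3 diabetic carMEC regions lay above all 3 non-diabetic ones for 9 members (6%, against 4.34% of all probes and 6.36% of eligible probes) and below them for 7 (4.67%, against 7.17% of all probes and 6.43% of eligible probes). In neuronal cells 12 members were above (8%, against 3.36% of all probes and 3.85% of eligible probes) and 11 below (7.33%, against 9.73% and 9.32%). In retMECs 10 were above (6.67%, against 2.8% of all probes and 6.74% of eligible probes) and 10 below (6.67%, against 9.17% and 4.55%). The carMEC and retMEC shares above were thus close to those of eligible probes, and the neuronal share was above theirs, without a test of these shares. Under 75th percentile scaling the members above and below were 4 and 12 in carMECs, 11 and 11 in neuronal cells, and 4 and 8 in retMECs. In carMECs these were 2.67% and 8%, against 2.15% and 11.3% of all probes and 3% and 11% of eligible probes. The balance of the members turned from above to below, and eligible probes moved from near even to mostly below. All probes were already more often below on the CPM scale and moved further that way. In neuronal cells all probes gave 2.93% and 9.73%, and in retMECs 1.82% and 7.77%.

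The direction of change was shared across cell types about as often as among eligible probes. Higher mean levels in diabetic carMECs, neuronal cells and retMECs alike were seen for 17 members (11.3%, against 7.55% of all probes and 12.4% of eligible probes), and lower means in all 3 for 21 (14%, against 20.2% and 13.3%). Complete separation above was seen in at least 1 of the 3 cell types for 29 members (19.3%, against 10.1% of all probes and 16% of eligible probes) and in at least 2 for 2 (1.33%, against 0.367% and 0.963%), both of which did so in neuronal cells and retMECs. Separation below was seen in at least 1 for 25 members (16.7%, against 23.7% and 18.6%) and in at least 2 for 3 (2%, against 2.27% and 1.61%). Of the 2 members separated above in both neuronal cells and retMECs, rank 31 had 42.7, 38.4 and 35.7 CPM in diabetic neuronal regions. Its non-diabetic neuronal levels were 21.5, 29.2 and 28.6 CPM. In retMECs it had 354, 418 and 267 CPM in diabetic and 102, 152 and 239 CPM in non-diabetic regions. The other, rank 58, had 165, 128 and 202 CPM in diabetic and 91.2, 91.4 and 106 CPM in non-diabetic neuronal regions, but on edgeR's quasi-likelihood test its neuronal log2 fold change of 0.85 (SE 0.28) had an adjusted p of 0.109. Opposite separations were seen for 3 members (2%, against 1.76% of all probes). Rank 25 was above in carMECs and below in retMECs, and ranks 72 and 76 were above in carMECs and below in neuronal cells.

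The renal ratio, which ranked the members and varied little among them (middle 50% from 1.39 to 1.65), was set beside the change elsewhere as a description. Across the 150 members Spearman's rho between the renal ratio and the log2 change was 0.014 in carMECs, −0.015 in neuronal cells and −0.024 in retMECs. The probes share regions and depth. The member of highest renal ratio, with 106, 91.9 and 98.8 CPM in diabetic and 28.1, 22.8 and 28.2 CPM in non-diabetic renMECs, had 39.1, 58.5 and 26.0 CPM in diabetic and 56.2, 47.3 and 36.4 CPM in non-diabetic carMECs. Its neuronal levels were 12.2, 64.1 and 47.5 CPM in diabetic and 40.3, 20.3 and 28.6 CPM in non-diabetic regions. Both pairs of groups overlapped. The member ranked second had 104, 16.7 and 78.1 CPM in diabetic and 28.1, 14.2 and 23.02 CPM in non-diabetic carMECs, where 1 diabetic region lay among the non-diabetic ones, and 6.10, 0 and 17.8 CPM in diabetic against 18.8, 27.9 and 12.3 CPM in non-diabetic neuronal regions.

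The members covered a wide range of levels outside the kidney. They were ordered by their mean level in the 18 regions outside the kidney. That mean includes the diabetic regions whose change is given, so level and change are partly tied by construction. The 50 highest, at 50.4 to 485 CPM, had a median log2 change of 0.10 in carMECs, 0.02 in neuronal cells and 0.15 in retMECs. Of these 50, the diabetic regions were all above for 6 and all below for 4 in carMECs, 9 and 6 in neuronal cells, and 8 and 0 in retMECs. In the 50 of middle level, at 35.4 to 49.4 CPM, they were above for 2 and below for 3 in carMECs, 2 and 2 in neuronal cells, and 0 and 3 in retMECs. The 50 lowest, at 18.8 to 35.0 CPM, had median changes of −0.01, −0.09 and −0.14, with 1 above and 0 below in carMECs, 1 and 3 in neuronal cells, and 2 and 7 in retMECs. In the shallow diabetic retMEC regions such levels are within a few counts of 0. Of all probes 4.34% were above and 7.17% below in carMECs, 3.36% and 9.73% in neuronal cells, and 2.8% and 9.17% in retMECs. Of eligible probes the shares were 6.36% and 6.43%, 3.85% and 9.32%, and 6.74% and 4.55%. Shares for other probes of like level were not computed, so the pattern over levels cannot be read as a trait of the members.

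The rule itself was met by few members elsewhere. In carMECs 13 members had 10 counts in all 3 diabetic regions and 1, RTS0066298, met the ratio of 1.3. Of the 767 probes with such counts there, 26 met it (0.129% of all probes). In neuronal cells 12 members had the counts and 3 met the ratio, ranks 40, 42 and 131. Of the 846 probes with the counts, 22 met it (0.109% of all probes). In retMECs 2 members had the counts and 0 met the ratio, against 12 of the 142 probes with the counts (0.0594% of all probes). Low counts thus kept most members from being eligible outside the kidney.

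Single members were tested with edgeR's quasi-likelihood test over all probes that passed its count filter, with Benjamini-Hochberg adjustment over those probes. In carMECs 42 of the 150 members passed the filter and 2 rose in diabetes, where 0.339% of the 3247 probes tested were called higher, and 0 fell, where 0.585% were called lower. Unadjusted p was under 0.05 for 4 members higher (9.52% of those tested, against 2% of all probes tested) and 2 lower (4.76%, against 6.28%). Over every probe tested in carMECs the log2 fold change had a median of −0.11, and of 0.09 with TMM factors, under which the same 2 members rose. With TMM factors 26 of the 3247 probes were called higher and 7 lower, in place of 11 and 19. In neuronal cells 40 members passed, 1 rose, against 0.145% of the 4135 probes tested, and 1 fell, against 1.09%, with unadjusted p under 0.05 for 6 higher (15%, against 3.7% of all probes tested) and 4 lower (10%, against 5.76%). TMM factors gave 3 that rose and 0 that fell. Among the 4135 probes they gave 24 higher and 38 lower, in place of 6 and 45. In retMECs 8 members passed the filter, and 0 rose and 0 fell, where 0% of the 699 probes tested were called in either direction. Unadjusted p was under 0.05 for 0 members in retMECs, and DESeq2 called 0 as well. Fewer cells and less RNA per cell cannot be told apart in any of these regions.

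RTS0066298, 19th in the renal ratio at 1.82, had the smallest p of the members in any diabetes test. In carMECs it had 1470, 1610 and 1870 CPM in the diabetic regions (1650 ± 206, SD, n = 3) and 712, 809 and 539 CPM in the non-diabetic regions (687 ± 137), from 171 to 281 counts per region. The groups did not overlap, and the log2 fold change was 1.13 (SE 0.21, edgeR adjusted p = 3.43e-05). It was called without diabetic carMEC region 2 (adjusted p = 0.00171) and without region 3 (0.00842), the regions whose labels name only the heart, and was not called in 1 model of all 24 regions (SE 0.35, adjusted p = 0.601). In renMECs it had 698, 423 and 452 CPM in diabetic and 204, 232 and 200 CPM in non-diabetic regions. Its levels were far lower in the retina, at 30.5, 38.4 and 35.7 CPM in diabetic and 34.9, 36.8 and 20.4 CPM in non-diabetic neuronal regions, which overlapped. In retMECs they were 0, 139 and 89.0 CPM in diabetic and 58.4, 70.0 and 42.2 CPM in non-diabetic regions, from at most 20 counts. The differences between cell types in its diabetes change did not pass the test: the log2 difference was 1.35 (SE 0.76, adjusted p = 0.720) for carMECs against retMECs and −1.04 (SE 0.66, adjusted p = 0.999) for neuronal cells against carMECs.

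The other member that rose in carMECs stood 57th in the renal ratio and depended on unequal regions. It had 241, 100 and 581 CPM in diabetic and 117, 128 and 113 CPM in non-diabetic carMECs, a log2 fold change of 1.20 (SE 0.30, edgeR adjusted p = 0.0357), although diabetic region 2 lay below all 3 non-diabetic regions. The call was lost with total-count scaling and with DESeq2, and without non-diabetic carMEC region 1, 2 or 3 or diabetic region 3, each of which left 1 member called. Its neuronal levels ran the other way, with 61.0, 205 and 101.01 CPM in diabetic and 118, 664 and 164 CPM in non-diabetic regions, a log2 fold change of −1.65 (SE 0.99, adjusted p = 0.780). The non-diabetic neuronal mean rested on 1 region. When replicate number entered the fit as a block this neuronal change was called, at −1.21 (SE 0.31, adjusted p = 0.0317).

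RTS0066538, 94th in the renal ratio at 1.43, was the lower member of smallest p in carMECs and did not pass the threshold. It had 71.7, 75.2 and 43.4 CPM in diabetic carMECs (63.5 ± 17.5, n = 3) and 91.9, 104 and 127 CPM in non-diabetic carMECs (108 ± 17.6), with a log2 fold change of −0.91 (SE 0.33, edgeR adjusted p = 0.228). The 2 groups did not overlap, and the direction was opposite to that in renMECs, where levels of 50.4, 96.4 and 47.9 CPM in diabetic and 33.4, 22.8 and 24.1 CPM in non-diabetic regions had chosen it. In neuronal cells it had 30.5, 0 and 35.7 CPM in diabetic and 21.5, 22.8 and 12.3 CPM in non-diabetic regions, from at most 18 counts. In retMECs the groups overlapped too, at 85.9, 34.8 and 22.2 CPM in diabetic and 49.6, 58.4 and 0 CPM in non-diabetic regions.

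RTS0077009, 40th at 1.64, was high in every cell type and rose in neuronal cells. The neuronal levels were 647, 948 and 689 CPM in diabetic (761 ± 163, n = 3) and 478, 369 and 388 CPM in non-diabetic regions (412 ± 57.9), without overlap, a log2 fold change of 0.83 (SE 0.21, edgeR adjusted p = 0.0148). The call was lost without non-diabetic neuronal region 2 (adjusted p = 0.332), non-diabetic region 3 (0.0893) or diabetic region 3 (0.215). It was also lost with the replicate number as a block (0.069), without the count filter (0.0837) and in the model of all 24 regions (0.758). In carMECs it had 587, 351 and 494 CPM in diabetic and 416, 417 and 305 CPM in non-diabetic regions, which overlapped, with a log2 fold change of 0.21 (SE 0.22, adjusted p = 0.853). In retMECs it ranged from 387 to 601 CPM in diabetic and from 128 to 690 CPM in non-diabetic regions, with a log2 fold change of 0.14 (SE 0.79, adjusted p = 0.98). It was the highest member in renMECs, at 636, 808 and 647 CPM in diabetic and 360, 387 and 294 CPM in non-diabetic regions.

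RTS0065376, 76th at 1.48, was lower in diabetic neuronal cells, the only one of the 40 members tested there to be called lower. It had 67.1, 0 and 89.1 CPM in diabetic (52.1 ± 46.4, n = 3) and 93.9, 164 and 164 CPM in non-diabetic neuronal regions (140 ± 40.2), a log2 fold change of −1.17 (SE 0.33, edgeR adjusted p = 0.0460). Diabetic region 2 gave no count, at a depth where 3 counts are 38.4 CPM. The call was lost when any 1 of the 6 neuronal regions was left out, with an adjusted p of 0.0501 to 0.426. In carMECs all 3 diabetic regions lay above the non-diabetic ones at a low level, 45.7, 33.4 and 43.4 CPM against 33.2, 23.7 and 23.02 CPM, from at most 13 counts. In retMECs the groups overlapped, at 247, 174 and 178 CPM in diabetic and 87.6, 210 and 225 CPM in non-diabetic regions.

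**Figure D3:**
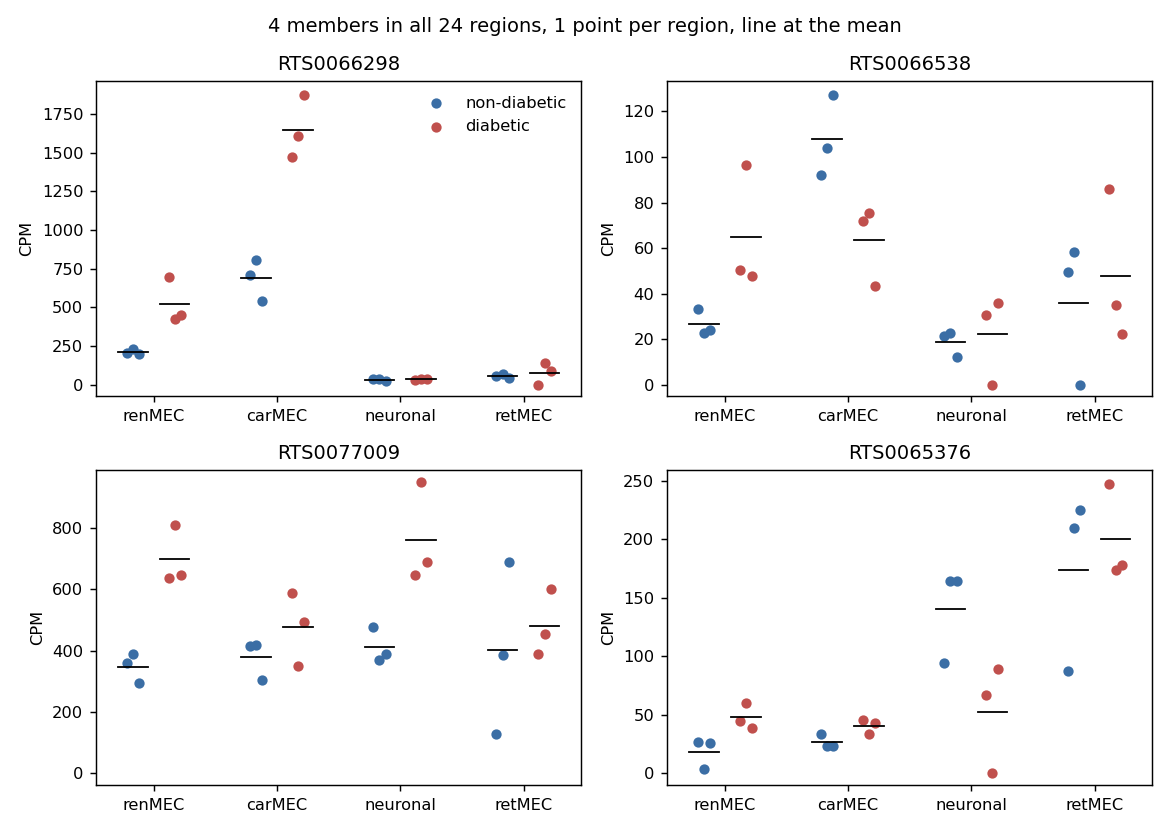
CPM (vertical axes, each panel with its own scale) of 4 members by cell type (horizontal axis), with 1 point per region and a line at the mean of 3. RTS0066298 is highest in diabetic carMECs, at 1650 CPM, and RTS0077009 is between 347 and 761 CPM in every group mean; RTS0066538 in carMECs and RTS0065376 in neuronal cells are lower in the diabetic regions.

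The remaining members that met the rule in neuronal cells did not pass the test there. Rank 42 had 238, 218 and 303 CPM in diabetic and 153, 141 and 151 CPM in non-diabetic neuronal regions, a log2 fold change of 0.81 (SE 0.24, edgeR adjusted p = 0.0714). Its adjusted p was 0.0207 with TMM factors and 0.0197 without diabetic neuronal region 2, the shallowest of the 6. Rank 131 had 104, 128 and 113 CPM in diabetic and 72.5, 78.7 and 69.5 CPM in non-diabetic regions, with an adjusted p of 0.523. Both were without overlap between groups in neuronal cells.

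Whether the change of a member differed between cell types was tested in 1 model of all 24 regions. Of the 127 members that passed the filter of that model, 0 were called between carMECs and retMECs, where 0% of 11472 probes were called higher and 0.105% lower. The same model called 0 members for the diabetes change within carMECs, neuronal cells or retMECs. A lack of calls in it therefore cannot show that the change was alike. Between neuronal cells and retMECs 0 members were called, where 0.00872% of probes were called higher and 0.279% lower, and between neuronal cells and carMECs 0 members, where 0.00872% and 0% were called. Unadjusted p was under 0.05 for 10, 10 and 9 members in these contrasts (7.87%, 7.87% and 7.09%, against 7.43%, 8.23% and 4.19% of all probes tested), and DESeq2 called 0 members in each. The smallest adjusted p among members was 0.131, for the member ranked 13th in neuronal cells against retMECs. It had 42.7, 38.4 and 41.6 CPM in diabetic and 56.4, 90.1 and 98.1 CPM in non-diabetic neuronal regions, and 118, 34.8 and 111 CPM in diabetic and 32.1, 70.0 and 42.2 CPM in non-diabetic retMECs.

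The second question was how high the members stood outside the kidney in the absence of diabetes. The median over the 150 members of the mean non-diabetic level was 46.7 CPM in retMECs, 41.0 CPM in carMECs, 30.6 CPM in neuronal cells and 25.6 CPM in renMECs, beside 38.6, 35.5, 28.4 and 22.2 CPM over all probes. Placed among all 20186 probes of the same cell type, the median member stood at percentile 67.5 in carMECs, 66.7 in retMECs, 55.7 in neuronal cells and, by a measure tied to the choice, 58.5 in renMECs. The top 25% of probes held 65 members in retMECs (43.3%), 55 in carMECs (36.7%) and 43 in neuronal cells (28.7%), where 62.6%, 67.0% and 60.0% of eligible probes stood. In renMECs it held 26 members without diabetes and 116 with it. The members were thus above the middle of all probes and below the eligible probes in each of the 3 cell types. These standings may in part follow from the choice, which set a count minimum in diabetic renMECs and asked for lower non-diabetic renal levels. How far they do was not tested.

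**Figure D4:**
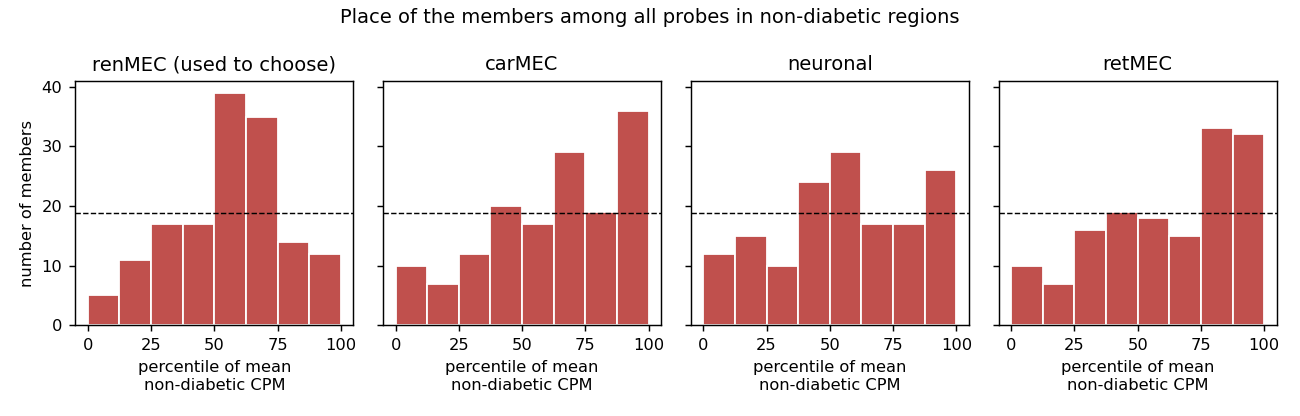
Number of members (vertical axis) by the percentile of their mean non-diabetic CPM among all probes of the cell type (horizontal axis), with a dashed line at the number an even spread would give. The bars are highest toward the right in carMECs and retMECs, whose medians are 67.5 and 66.7, and are spread more evenly in neuronal cells, with a median of 55.7.

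The members in the top 25% were compared over the 3 cell types outside the kidney. The top 25% held 25 members in all 3 (16.7%, against 11% of all probes and 39.8% of eligible probes), 17 in carMECs and retMECs but not neuronal cells (11.3%, against 3.81% and 10.5%) and 17 in retMECs alone (11.3%, against 5.61% and 5.87%). Neuronal cells alone had 8 (5.33%, against 5.89% and 5.15%), and 64 members were in the top 25% of none of the 3 (42.7%, against 58.9% and 15.5%). The highest of the 3 non-diabetic means was that of retMECs for 71 members (47.3%, against 46.7% of all probes), of carMECs for 56 (37.3%, against 35.4%) and of neuronal cells for 23 (15.3%, against 17.9%), shares close to the background. All 3 regions stood above the 6 others for 12 members in retMECs (8%, against 4.67% of all probes), 7 in carMECs (4.67%, against 3.34%) and 4 in neuronal cells (2.67%, against 3.76%).

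Basal differences between cell types passed the test for 32 members, of 140 that passed the filter among the 9 non-diabetic regions (22.9%, against 17.9% of all probes tested and 30.5% of eligible probes). The widest contrast was that of neuronal cells with carMECs, which lie on the same plate, where 9 members were higher in neuronal cells, against 7.79% of the 17307 probes tested, and 20 lower, against 7.57%. The median log2 difference of these members was 1.38 and −1.31. The balance of this contrast depended on the scaling, since TMM factors gave 14 higher and 15 lower. All probes tested moved the same way, from 1349 higher and 1311 lower to 1772 and 849. Neuronal cells against retMECs gave 7 higher (5.29% of probes tested) and 7 lower (2.2%). With total-count scaling these became 2 higher and 22 lower, and with TMM factors 7 higher and 3 lower. Among the 17307 probes the calls were 916 higher and 381 lower, 471 and 1462 with total-count scaling, and 926 and 261 with TMM factors. Over every probe tested, total-count scaling shifted the median log2 difference from −0.08 to −0.47. CarMECs against retMECs gave 4 higher (2.17%) and 1 lower (0.416%). Both contrasts with retMECs are also contrasts of plates. In these fits 16 members differed in at least 2 contrasts (11.4%, against 7.34% of all probes tested and 13.9% of eligible probes) and 0 in all 3 (against 0.214% of all probes tested).

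The members with the largest basal differences were unlike one another. RTS0066298 was higher in carMECs than in neuronal cells (log2 difference, neuronal minus carMEC, −4.32, SE 0.51, edgeR adjusted p = 1.58e-10), and higher than in retMECs by 3.87 (SE 0.54, adjusted p = 1.03e-07). The member ranked 116th was the reverse, at 894, 659 and 924 CPM in non-diabetic neuronal regions against 43.4, 85.2 and 48.0 CPM in carMECs and 75.9, 140 and 197 CPM in retMECs. Its neuronal level exceeded that of carMECs by 3.93 (SE 0.54, adjusted p = 1.32e-08) and that of retMECs by 3.09 (SE 0.54, adjusted p = 2.72e-05). In diabetic neuronal regions it had 927, 1294 and 1159 CPM, all above the non-diabetic regions, with a log2 fold change of 0.42 (SE 0.22, adjusted p = 0.560). In renMECs, where it was chosen, its levels were far below its neuronal ones, at 47.6, 45.9 and 71.9 CPM in diabetic and 29.9, 22.8 and 33.1 CPM in non-diabetic regions.

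Other members had smaller basal differences. The member ranked 11th had 295, 306 and 282 CPM in non-diabetic neuronal regions and 40.9, 52.1 and 51.8 CPM in carMECs, a log2 difference of 2.68 (SE 0.42, edgeR adjusted p = 4.11e-07). Its diabetic neuronal levels were 519, 423 and 351 CPM, all above the non-diabetic ones, with a log2 fold change of 0.53 (SE 0.22, adjusted p = 0.306). The member ranked 31st was higher in retMECs than in neuronal cells (log2 difference, neuronal minus retMEC, −1.99, SE 0.35, adjusted p = 3.17e-05). RTS0065376, which fell in diabetic neuronal cells, was lower in carMECs than in neuronal cells (neuronal minus carMEC 2.45, SE 0.37, adjusted p = 2.24e-07) and lower than in retMECs (carMEC minus retMEC −2.18, SE 0.42, adjusted p = 0.000168). RTS0066538 was higher in carMECs than in neuronal cells (neuronal minus carMEC −2.33, SE 0.32, adjusted p = 8.38e-09) and than in retMECs (carMEC minus retMEC 1.65, SE 0.35, adjusted p = 0.000862). RTS0077009 was called in none of the basal contrasts. Its neuronal minus carMEC difference was 0.21 (SE 0.48, edgeR adjusted p = 0.811), with a 95% interval of −0.73 to 1.15. The neuronal minus retMEC difference was 0.50 (SE 0.51, adjusted p = 0.622) and the carMEC minus retMEC difference 0.29 (SE 0.51, adjusted p = 0.948).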

How the data were processed

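The GeoMx mouse transcriptome panel was read in 24 regions of retina, kidney and heart. For each region the authors deposited the unscaled counts of its probes. The pipeline, given as GeoMx NGS Pipeline 2.3.4 in the submitters' processing notes, matched reads to the probes' barcodes and collapsed those with one molecular identifier. Unlisted probes were taken as 0. The quality control, gene exclusion and 75th percentile scaling of the methods had not been applied to the deposited counts.

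Members were chosen on CPM, and the members and lists were chosen with earlier results of these data known. Tests used edgeR 4.0.16 in R 4.3.3, with its robust quasi-likelihood fit, 75th percentile factors, a minimum of 10 counts in its filter and an adjusted p under 0.05. Diabetes was tested within the 6 regions of each cell type, basal level in the 9 non-diabetic regions outside the kidney, and the interaction in all 24. Medians over members used log2 of mean CPM plus 10. The probes named are the member of smallest p in each direction in carMECs and in neuronal cells. The fits were tested on simulated data. No pair of replicates held identical counts, the lowest chi-square per degree of freedom between them being 1.09. Separate reads of the same library would also give values near 1, so this check cannot exclude them. Alternatives included TMM, DESeq2 1.42.0, other filters, scalings, pseudocounts and rules, and leaving out each region. The gene and marker lists drawn up were not tested, for lack of gene symbols.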

Additional observations from a re-analysis of the deposited data

How the results depend on the processing

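The numbers of members called were as follows. In carMECs, where 2 were called, 1 was called with total-count scaling, DESeq2, no filter or 10 counts in every region, 0 in 1 model of all 24 regions, and 1 to 2 when 1 region was left out. Over all probes tested there, 11 higher and 19 lower became 17 and 6 with total-count scaling and 8 and 2 with DESeq2. Without a filter they were 7 and 6 of 20185, and with 10 counts in every region 10 and 11 of 754. The model of all 24 regions gave 1 and 0 of 11472. In neuronal cells, where 2 members were called, 1 was called with DESeq2, 0 without a filter, 0 in the model of all 24 regions, and 0 to 5 when 1 region was left out, with 0 without non-diabetic region 2 or 3 or diabetic region 3, and 5 without diabetic region 2. The neuronal calls over all probes tested, 6 higher and 45 lower, became 17 and 11 with DESeq2 and 3 and 15 without a filter. They were 0 and 1 in the model of all 24 regions, and 20 and 37 without diabetic region 2. Without non-diabetic region 2 or 3 or diabetic region 3 they were 1 and 6, 5 and 50, and 0 and 1. In retMECs 0 members were called under every alternative run, as were 0 in each interaction contrast (0 to 0 when 1 region was left out). All probes in retMECs gave 15 higher and 4 lower without a filter, and 4 and 0 in the model of all 24 regions. At the basal level carMECs against retMECs went from 5 members to 0 with 10 counts in every region, and to 4 to 9 when 1 region was left out, with 9 without non-diabetic retMEC region 1. All probes went from 375 higher and 72 lower to 25 and 19 of 482 with 10 counts in every region. Without non-diabetic retMEC region 1 they gave 429 and 371 of 15229. Neuronal cells against retMECs went from 14 members to 9 with DESeq2 size factors, 24 with total-count scaling, 5 with DESeq2 and 1 with 10 counts in every region, and to 6 to 17 when 1 region was left out, the 6 without non-diabetic neuronal region 2. All probes went from 916 higher and 381 lower to 747 and 341, 471 and 1462, and 482 and 149 under the first 3 of these. With 10 counts in every region they gave 48 and 19 of 482, and without non-diabetic neuronal region 2 557 and 180 of 16594. Neuronal cells against carMECs went from 29 to 12 with DESeq2 and 2 with 10 counts in every region, and to 18 to 38 when 1 region was left out, with 18 without non-diabetic neuronal region 2 or non-diabetic carMEC region 3.

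In 0 of 28 pairs of groups were all same-numbered correlations over 0.1. Pairs of a diabetic with a non-diabetic group cannot share a mouse, and low counts limit the correlations in the rest. The check therefore cannot exclude that same-numbered regions came from the same mouse. With the replicate number as a block, 1 member was called in neuronal cells, a different one, and 9 were called in neuronal cells against retMECs; the block moved no other count of members by over 1.5 times.

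The median log2 change in carMECs (0.02) became −0.0895 with 75th percentile scaling, where all probes were at −0.15, and 0.19 for members chosen with 20 counts, and was −0.0264 to 0.0666 with 1 region left out. In neuronal cells (−0.01) it became −0.22 for members chosen with 20 counts and was −0.0577 to 0.0576 with 1 region left out. In retMECs (−0.05) it became −0.0319 with a pseudocount of 50 CPM, −0.12 with 75th percentile scaling, 0 after thinning to the lowest total, 0.0517 for members with a ratio over 1.5, 0.0475 for members chosen on the 75th percentile, 0.15 for members chosen with 20 counts, and −0.107 to −0.0328 with 1 region left out. The renal rule found 66 probes with a ratio over 1.5, 25 with 20 counts and 63 on the 75th percentile, in place of 173.

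Of the named probes, RTS0066298 kept its call in 13 of 14 alternatives and RTS0077009 in 8 of 14. RTS0065376 kept it in 1 of 12, total-count scaling, and RTS0066538 was called in none. None changed direction. The sums without RTS0066298 and those on the 75th percentile were chosen after seeing the data. Depth limits retMECs most, with 8 members tested.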
